A study of Mus musculus with 79 samples.

Results

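The 10 genes described here mark subtypes of cortical VIP interneurons by something other than a neuropeptide: Calb2, Htr3a, Htr1f, Cnr1, Chat, Slc5a7, Slc18a3, Synpr, Crispld2 and Npy2r. They were chosen by symbol from the raw count matrix, where GENCODE vM21 gave the Ensembl identifiers their symbols, and they are 10 of 55335 rows. All 10 were found, and each was read in all 79 libraries. Each library held the RNA of a pool of 50 to 100 nuclei sorted from the visual cortex of adult mice that carried 1 copy each of a VIP Cre allele and of the Cre-dependent INTACT allele, a tag on the nuclear envelope. All mice, including the controls, carried both alleles, and all libraries are labelled as coming from mice housed in the dark for 10 days.

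The study compared 3 treatments. Mice received an adeno-associated virus (AAV) with Kir2.1, an inward-rectifying potassium channel that lowers excitability when overexpressed, or the same virus with a Kir2.1 labelled as mutant, or no virus. Both viruses used the neuronal Syn1 promoter and also encoded mScarlet fused to KASH, which places the red protein on the nucleus. They were injected at postnatal day 55 to 60, and dark housing began 3 days later. With Kir2.1, 10 libraries held VIP nuclei that were transduced, 10 held VIP nuclei that were not, 8 held transduced neurons and 10 held all nuclei that were not transduced. With the mutant the same 4 populations gave 9, 9, 8 and 9 libraries, and mice without virus gave 3 VIP libraries and 3 of all nuclei. The treatment protocol also mentions harvest after 1 h of light, but no library is labelled with it.

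VIP interneurons are inhibitory cells of the cortex that mostly contact other inhibitory cells. They receive acetylcholine and serotonin fibres through ionotropic receptors, and their subtypes differ in calcium-binding proteins, in the receptors that they carry and, in some bipolar cells, in a cholinergic machinery. Calb2 encodes calretinin, a calcium buffer of bipolar VIP cells. Htr3a encodes the serotonin-gated channel subunit that defines the wider interneuron class to which VIP cells belong, and Htr1f an inhibitory G protein-coupled serotonin receptor. Chat makes acetylcholine, Slc18a3 loads it into vesicles and Slc5a7 takes up choline for it. Cnr1 encodes the presynaptic cannabinoid receptor of Cck-expressing basket cells, and Npy2r a receptor for neuropeptide Y. Synpr encodes synaptoporin, a synaptic vesicle protein, and Crispld2 a secreted protein with a CAP domain.

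The total count per library ranged from 3219899 to 9267246. In the VIP fit, 2 libraries correlated less with the rest than the other 39 did: Kir2.1 transduced VIP replicate 1 (r = 0.881) and Kir2.1 non-transduced VIP replicate 9 (r = 0.866), against a limit of 0.886 set at 3 median absolute deviations. The sex label disagreed with the sex-linked genes in 32 of 79 libraries, so sex was not used in the main tests. Kcnj2, the gene of Kir2.1, averaged 595 ± 231 CPM (the count scaled to the library's total; SD, n = 10) in Kir2.1 transduced VIP nuclei and 775 ± 315 (n = 9) in mutant transduced VIP nuclei. It averaged 15.4 ± 8.4 (n = 10) and 22.6 ± 8.11 (n = 9) in the corresponding nuclei that were not transduced, so transduced VIP libraries (268 CPM or more) lay above non-transduced ones (35.2 CPM or less) with either vector. Transduced neurons reached down to 138 CPM and all non-transduced nuclei up to 149. All 14 VIP neuron markers were higher in non-transduced VIP nuclei than in all nuclei, and all 15 excitatory neuron markers were lower. The library names number the libraries as biological replicates (BioRep). No label says that numbered libraries came from separate mice, so p-values measure the spread between libraries.

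The sequences upstream of 3 genes are shown because 2 of them, Chat and Slc18a3, form a single nested locus and the third, Htr1f, is the gene that ran opposite to the others. Coordinates are on mm10 (GRCm38). Chat lies on chromosome 14, 32408203 to 32465989, minus strand, with 17 exon blocks. Slc18a3 lies wholly inside Chat on the same strand, at 32462438 to 32464850, as 1 exon block that shares 0 exon bases with Chat. Its start is 1139 bases downstream of the Chat start. Reads of unspliced Chat RNA over Slc18a3 cannot be told apart from reads of Slc18a3 itself. Htr1f lies on chromosome 16, 64924729 to 65105854, minus strand. Each sequence below ends next to the annotated start of the gene, reads 5′ to 3′ on the gene's strand, comes from RefSeq promoters of GRCm38.p6 and has its CG dinucleotides in capitals.
Htr1f, chr16:65105855-65106034: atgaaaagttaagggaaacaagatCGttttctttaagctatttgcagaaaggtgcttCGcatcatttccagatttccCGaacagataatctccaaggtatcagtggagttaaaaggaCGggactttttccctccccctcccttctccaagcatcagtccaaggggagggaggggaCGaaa
Chat, chr14:32465990-32466159: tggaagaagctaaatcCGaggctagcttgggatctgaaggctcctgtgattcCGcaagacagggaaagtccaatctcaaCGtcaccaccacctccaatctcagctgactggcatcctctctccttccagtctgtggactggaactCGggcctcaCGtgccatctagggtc
Slc18a3, chr14:32464851-32465100: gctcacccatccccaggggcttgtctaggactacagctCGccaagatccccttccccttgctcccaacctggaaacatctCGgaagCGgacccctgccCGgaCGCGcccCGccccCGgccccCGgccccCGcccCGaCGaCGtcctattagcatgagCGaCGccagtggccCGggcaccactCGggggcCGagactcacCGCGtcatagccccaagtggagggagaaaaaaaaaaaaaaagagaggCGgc
The Slc18a3 stretch holds 21 CG dinucleotides in 250 bases, while the Chat stretch holds 5 in 170 and the Htr1f stretch 5 in 180. RefSeq places the starts of Htr1f and Chat inside the GENCODE gene. In windows of 300 bases, from 250 before to 50 after the RefSeq start, GC content was 67% for Slc18a3, 55.7% for Chat and 53% for Htr1f. RefSeq promoters were matched for 8 of the 10 genes, which have 11 promoters between them. On either strand, none of the 11 held the cAMP response element TGACGTCA (1.79% of 32851 promoters did), the AP-1 site TGANTCA (7.81%) or the Egr site GCGTGGGCG (0.612%). These 3 motifs were searched because their factors follow neuronal activity.

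The other 7 genes lie apart. Calb2 is on chromosome 8, 110137502 to 110168210, minus strand, and Crispld2 on the same chromosome, 119992438 to 120052793, plus strand. Htr3a is on chromosome 9, 48899213 to 48911099, minus strand. Cnr1 is on chromosome 4, 33924593 to 33948831, plus strand, and Slc5a7 on chromosome 17, 54273590 to 54299034, minus strand. Synpr is on chromosome 14, 13284780 to 13616340, plus strand, and Npy2r on chromosome 3, 82538383 to 82548084, minus strand. The strand setting of the counting is not given in the sources used here, and the library kit keeps no strand. Htr3a overlaps the antisense gene Gm32335, which held 66453 counts in all. Their annotated exons share 0 bases, and whether intron reads were counted is not given in the sources used here. Crispld2 lies inside a longer same-strand gene, Gm20388, and shares 0 exon bases with it.

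The comparison of VIP nuclei with all nuclei, both not transduced, asks how far each gene is a marker of the VIP class in this tissue. Of the 10 genes, 9 were higher in VIP nuclei and Htr1f was lower, in a table in which 32.6% of 22855 genes were called, 12.8% higher and 19.7% lower. The median log2 fold change of the 10 was 6.23, and that of all genes tested was -0.05. Chat, Slc5a7, Slc18a3 and Crispld2, with few counts in all nuclei, passed the filter on low counts only through the VIP libraries. Their direction was therefore set by the filter, and their values lie above this median. The genes were chosen as VIP markers with earlier results of these data known, so these counts describe them. Fewer cells of a type and less RNA per cell cannot be told apart in such pools.

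The 3 cholinergic genes were close to absent outside VIP nuclei. Over the 41 VIP libraries the lowest Chat level was 26 CPM. Over the 22 libraries of all nuclei the highest was 2.59 CPM, with 18 libraries at 0, and all 16 libraries of transduced neurons were at 0. Slc5a7 was 7.78 CPM or more in VIP libraries, at most 1.07 in all nuclei and 0 in the neurons. Slc18a3 was 4.42 CPM or more in VIP libraries, at most 0.705 in all nuclei, where 21 of 22 libraries were at 0, and 0 in the neurons. For each of the 3 genes VIP libraries lay above the highest of the other libraries. Chat was 409-fold higher in summed counts per total (95% counting interval 283 to 616, from 28 counts in all nuclei), Slc5a7 225-fold (146 to 369, from 20 counts) and Slc18a3 1190-fold (465 to 4370, from 4 counts). Against transduced neurons, with a floor of 3 counts over the group, transduced VIP nuclei were at least 3050-fold higher for Chat, at least 846-fold for Slc5a7 and at least 891-fold for Slc18a3. These intervals and floors cover counting error only, since amplified reads without molecular identifiers are not separate molecules.

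Of the serotonin receptors, Htr3a was higher in VIP nuclei. Its lowest VIP library was at 47.4 CPM, and its highest library was at 28.9 in all nuclei and at 31.9 in neurons, with 15 of 22 and 12 of 16 libraries at 0. The log2 fold change over all nuclei was 6.98 ± 0.57 (SE, 22 against 22 libraries; edgeR adjusted p = 2.74e-15), and the summed counts were 108-fold higher. Htr1f ran the other way. It spanned 43.6 to 127 CPM in all nuclei, 24.2 to 141 in transduced neurons and 0.337 to 60.4 in VIP nuclei, and the ranges overlapped once all VIP groups were included. In non-transduced VIP nuclei it was lower by -2.72 ± 0.29 on the log2 scale (edgeR adjusted p = 2.29e-11), a ratio of 0.146 in summed counts. Htr1f had a count in every one of the 79 libraries.

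**Figure D1:**
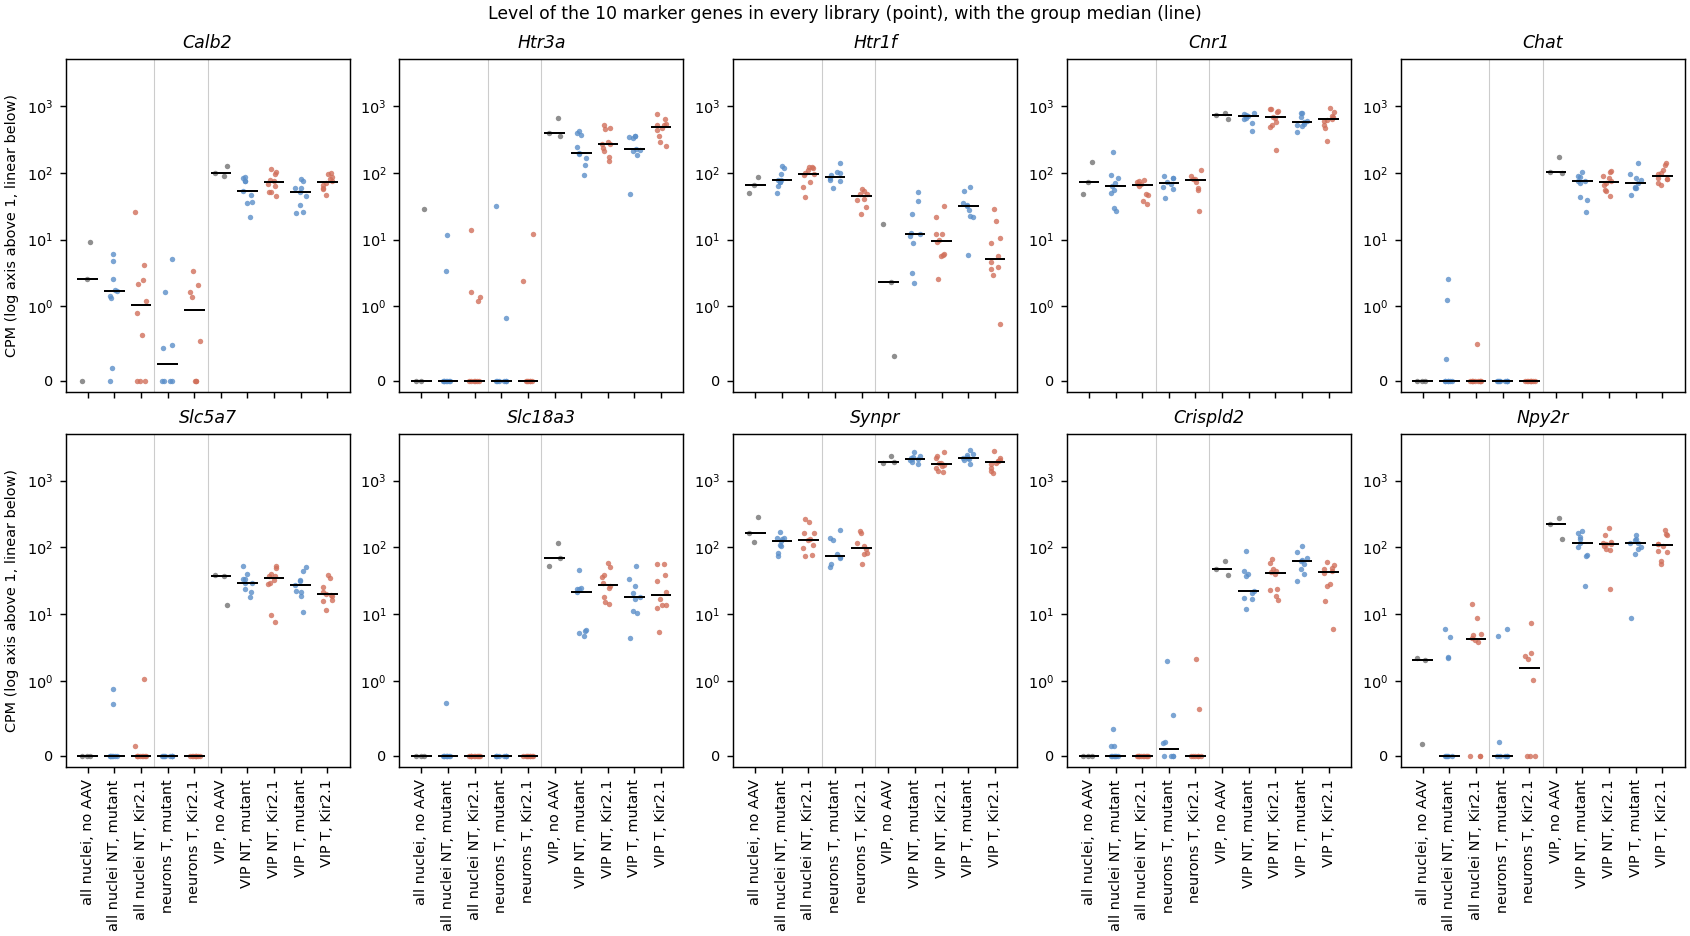
Level of each of the 10 genes (CPM; the axis is logarithmic above 1 and linear below) in every library, with a line at the group median; T is transduced, NT is not transduced, red is Kir2.1, blue is the mutant and grey is no AAV. Every gene but Htr1f sits higher in the 5 VIP groups on the right, and Htr1f sits lower there.

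The receptors Cnr1 and Npy2r differed in how much other nuclei held of them. Cnr1 had a count in all 38 libraries that were not VIP nuclei, at medians of 62.9 to 77.2 CPM by group, and at medians of 578 to 739 CPM in the VIP groups. The lowest VIP library (221 CPM) lay just above the highest library of all nuclei (202 CPM). Npy2r was at 0 in 8 of 22 libraries of all nuclei and 8 of 16 of neurons. Its lowest VIP library (8.84 CPM, mutant transduced replicate 1) lay below the highest library of all nuclei (14.5 CPM). In summed counts Cnr1 was 9.79-fold and Npy2r 43.4-fold higher in non-transduced VIP nuclei.

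Among the remaining genes Synpr had the smallest p-value of all 22855 genes tested (log2 fold change 3.84 ± 0.14; edgeR adjusted p = 1.93e-28). It was never below 1310 CPM in VIP libraries or above 284 elsewhere, 13.9-fold higher in summed counts. Calb2 ranged upward from 21.6 CPM in VIP libraries, while 1 library of all nuclei reached 25.8 and the highest neuron library 5.12. Its summed counts were 21.8-fold higher in non-transduced VIP nuclei. Crispld2 was 1400-fold higher (95% counting interval 546 to 5130), because all nuclei held 4 counts in all, in 3 of 22 libraries. The neurons held more Crispld2 than that, 33 counts in 6 of 16 libraries, and there the ratio was 156 (111 to 228).

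Transduced VIP nuclei against transduced neurons gave the same directions, with 9 genes higher and Htr1f lower, where 29.2% of 18359 genes were called, 12.4% higher and 16.8% lower. Only Htr1f, Cnr1 and Synpr passed the filter on low counts in neurons alone. The other genes entered this fit through the VIP libraries, where they are high, so their direction was set by the filter and only describes them. Htr1f was lower by -1.92 ± 0.27 (edgeR adjusted p = 1.74e-07), with 2 vectors averaged. The ratio of summed counts was 109 for Htr3a, 62 for Calb2, 60.9 for Npy2r, 19.7 for Synpr and 8.56 for Cnr1. For Htr1f it was 0.264, nearer to 1 than in the comparison with all nuclei.

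Levels can be compared between genes only per length of exon. Over the 41 VIP libraries Synpr stood first, at 214.4 ± 40.4 CPM per kb of exon (SD), followed by Htr3a at 159.7 ± 76.2 and Cnr1 at 99.4 ± 24.5. Calb2 (38.7 ± 14.3) and Npy2r (34.9 ± 15.1) were within their spread of each other. Chat followed at 17.5 ± 6.24, then Slc18a3 at 11.9 ± 9.27 and Crispld2 at 9.05 ± 4.62, which again overlapped. Htr1f (6.43 ± 5.91) and Slc5a7 (5.12 ± 2.13) came last, and their order turned when medians were used (4.36 and 5.22). Within the cholinergic trio the mean was highest for Chat and lowest for Slc5a7, but their means lay within the SD of Slc18a3. Reads of unspliced Chat RNA may also be part of the Slc18a3 value. Whether intron reads were counted is not given in the sources used here. The order of all these genes therefore describes counts per kb of exon and was not tested as an order of transcript abundance.

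**Figure D2:**
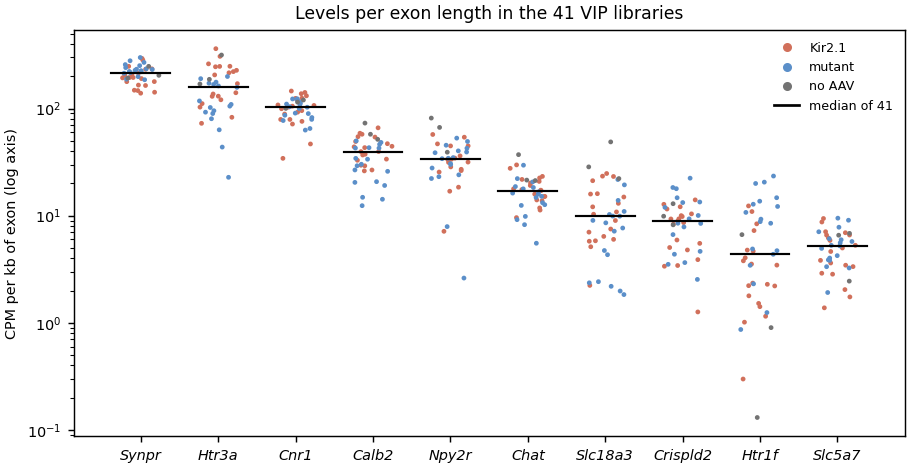
CPM per kb of exon (log axis) of the 10 genes in the 41 VIP libraries, 1 point per library coloured by vector, with a line at the median. Synpr, Htr3a and Cnr1 form the top of the order, and Htr1f spreads most widely at its low end.

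How much a gene varied between libraries of a group also differed. The fitted biological coefficient of variation was 77.2% for Htr1f, 59.7% for Slc18a3, 47.9% for Crispld2 and 45% for Npy2r, and 22.6% for Synpr. Genes of the same abundance had a trend value of 59.1%, 46.7%, 40.6%, 33.2% and 31.3% respectively. The ratio to the trend was highest for Npy2r (1.36), Htr1f (1.31), Htr3a (1.29) and Slc18a3 (1.28). Synpr, at 0.723, lay below the ratio of 95% of the 21207 genes of the fit.

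The central comparison of the study sets Kir2.1 against the mutant channel in transduced VIP nuclei. None of the 10 genes passed at an adjusted p of 0.05, where 1.39% of 21207 genes did (0.354% higher, 1.03% lower), and 4 of 10 had an unadjusted p under 0.05, against 11.2% of all genes. Those 4 were Htr3a and Calb2, higher with Kir2.1, and Htr1f and Crispld2, lower with Kir2.1. DESeq2 called 1 of the 10, Htr1f.

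Htr1f levels with Kir2.1 were 0.77 CPM at the lowest, 5.15 at the median and 28.2 at the highest, and with the mutant 5.96, 31.4 and 60.4. All 10 Kir2.1 libraries lay below the mutant median and 6 below the lowest mutant library. The means were 8.78 ± 8.52 CPM (SD, n = 10) and 32.4 ± 16.4 (n = 9), a log2 fold change of -1.88 ± 0.54 (95% interval -2.95 to -0.81; edgeR adjusted p = 0.0655). The adjusted p crossed the threshold under other settings. It was 0.0259 with DESeq2 and 0.0467 without the 2 libraries that stood apart, and it ranged from 0.0144 to 0.133 when single libraries were left out. It was lowest without Kir2.1 transduced replicate 6, and under 0.05 also without Kir2.1 transduced replicate 1 (0.0484) or mutant transduced replicate 8 (0.0444).

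Htr3a was 251, 487 and 752 CPM (lowest, median, highest) with Kir2.1 and 47.4, 227 and 358 with the mutant. All 10 Kir2.1 libraries lay above the mutant median and 7 above the highest mutant library. The means were 474.2 ± 154.6 CPM (SD, n = 10) and 251.7 ± 102 (n = 9), a log2 fold change of 0.93 ± 0.27 (95% interval 0.40 to 1.46; edgeR adjusted p = 0.0655). The adjusted p was 0.0383 without Kir2.1 transduced replicate 6. Its antisense neighbour Gm32335 gave 0.87 ± 0.27 (edgeR adjusted p = 0.0888).

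Calb2 was 46.4, 72.7 and 100.1 CPM with Kir2.1 and 24.8, 50.9 and 80.5 with the mutant, and 9 of 10 Kir2.1 libraries lay above the mutant median. Its log2 fold change was 0.56 ± 0.23 (edgeR adjusted p = 0.275). Crispld2 was 6.03, 42.9 and 61 CPM with Kir2.1 and 31.8, 63.3 and 107 with the mutant, and all 10 Kir2.1 libraries lay below the mutant median. Its log2 fold change was -0.73 ± 0.32 (edgeR adjusted p = 0.328). Both pairs of groups overlapped.

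**Figure D3:**
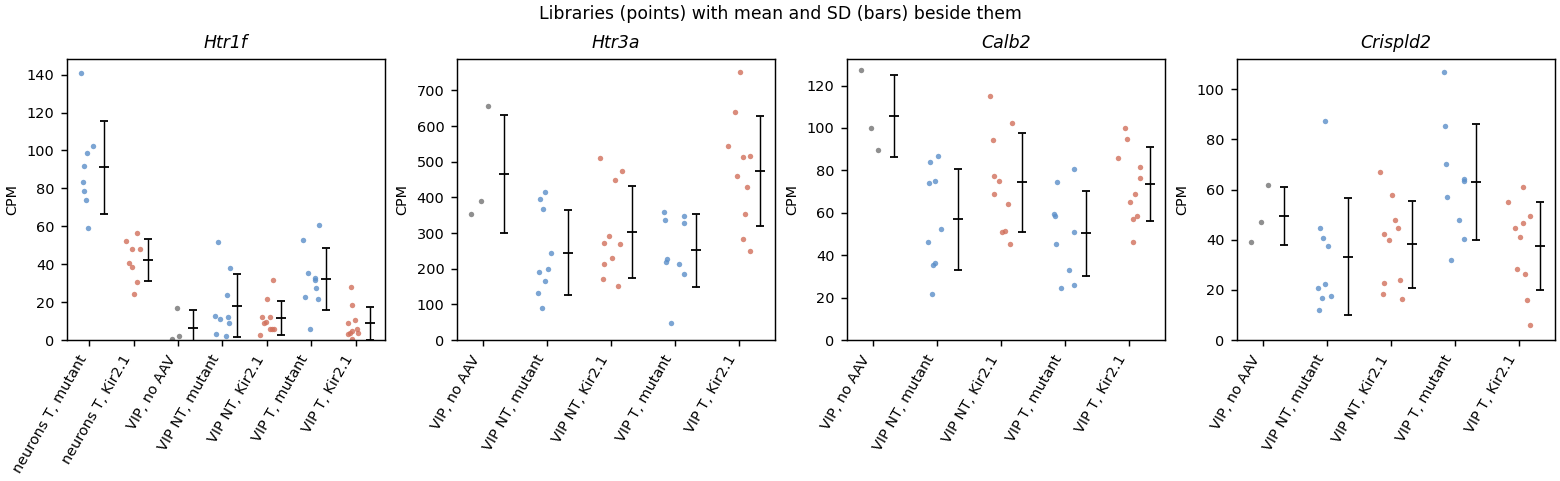
CPM of the 4 genes with an unadjusted p under 0.05 for Kir2.1 against the mutant in transduced VIP nuclei, 1 point per library, with mean and SD beside the points (SD bars that reach below 0 end at the axis). Kir2.1 transduced VIP libraries of Htr1f all lie below the mutant median of 31.4 CPM, and those of Htr3a all lie above the mutant median of 227 CPM.

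None of the cholinergic genes had an unadjusted p under 0.05 here. The log2 fold change was 0.33 ± 0.22 for Chat (95% interval -0.10 to 0.75), 0.32 ± 0.41 for Slc18a3 (-0.48 to 1.12) and -0.35 ± 0.30 for Slc5a7 (-0.94 to 0.23), and edgeR adjusted p ran from 0.659 to 0.891. Cnr1 gave 0.09 ± 0.18 (-0.27 to 0.44), Npy2r 0.12 ± 0.30 (-0.47 to 0.70) and Synpr -0.25 ± 0.13 (-0.50 to 0.01). Of these intervals only that of Slc18a3 reaches past 1 log2 unit from no change.

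Other markers moved in the same nuclei. Of 14 VIP neuron markers, which include Calb2 and Htr3a, 6 fell with Kir2.1: Penk (-2.05 ± 0.30), Crh (-2.59 ± 0.43), Adarb2 (-0.97 ± 0.17), Vip (-1.57 ± 0.29), Igf1 and Cck. The summed level of the 14 was 7630 to 13000 CPM in Kir2.1 libraries against 18200 to 21300 in mutant ones. Of 15 excitatory neuron markers, only Camk2a passed, and it rose (0.89 ± 0.12; edgeR adjusted p = 1.52e-06). The summed excitatory level was 933 to 1530 CPM in Kir2.1 libraries against 561 to 708 in mutant ones. Without Camk2a it was 64.7 to 258 and 56.8 to 104, which overlap. No marker of the excitatory list was at 0 in all libraries of either group. Within groups, Htr1f and the summed excitatory level gave r = -0.27 and rho = -0.14 in 19 transduced VIP libraries (permutation p = 0.322 and 0.591, adjusted 0.644 for r; r = -0.31 without the 2 farthest). In 22 non-transduced VIP libraries they gave r = -2.3e-05 and rho = 0.043 (permutation p = 1 and 0.853, adjusted 1 for r; r = 0.11 without the 2 farthest). These 2 relations were chosen after seeing the data. The sum includes Camk2a, which makes up most of it. In transduced VIP nuclei with Kir2.1 the median was 925 CPM for Camk2a and 125 for the other markers. With the mutant these medians were 510 and 86.5. The 2 relations therefore say little about the other excitatory markers. The part of these markers in the values of Htr1f and of the other 9 genes, and that of the VIP markers, was not tested.

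Transduced neurons gave the 1 call among the 10 genes. Only Htr1f, Cnr1 and Synpr passed the filter on low counts there, and Htr1f fell with Kir2.1, where 5.63% of 15949 genes were called, 2.18% higher and 3.45% lower. It was 24.2, 44.2 and 56.3 CPM with Kir2.1 and 59.1, 87.5 and 141 with the mutant, so the highest Kir2.1 library lay below the lowest mutant library. The means were 42.3 ± 10.97 CPM (SD, n = 8) and 91.1 ± 24.5 (n = 8), a log2 fold change of -1.06 ± 0.19 (95% interval -1.44 to -0.68; edgeR adjusted p = 0.000894). It was called in all 22 alternatives run for it. Cnr1 gave 0.10 ± 0.21 (-0.32 to 0.52) and Synpr 0.22 ± 0.26 (-0.28 to 0.72).

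Excitatory and astrocyte markers stood beside this result. The summed level of 15 excitatory markers was 1840 to 2600 CPM in Kir2.1 libraries against 2470 to 3040 in mutant ones, and none of the 15 passed the test, at a median log2 fold change of -0.41 against 0.04 for all genes. The summed astrocyte level was 217 to 315 CPM in Kir2.1 libraries against 391 to 484 in mutant ones, where Slc1a2 (-0.99 ± 0.14) and Aldh1l1 (-1.75 ± 0.47) fell among 7 tested. Their part in the fall of Htr1f was not tested.

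**Figure D4:**
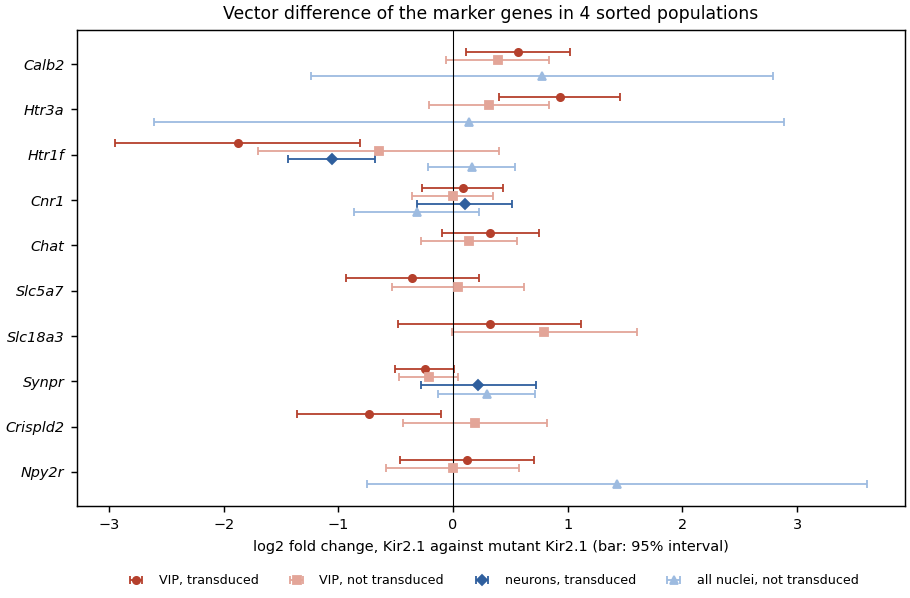
Log2 fold change of Kir2.1 against mutant Kir2.1 for each gene in 4 sorted populations, with 95% intervals; genes under the filter on low counts have no point. In transduced nuclei Htr1f lies left of 0 in VIP cells (-1.88) and in neurons (-1.06), and Htr3a lies at 0.93 in transduced VIP nuclei.

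In nuclei that were not transduced no vector difference was called for any gene in the table. Among VIP nuclei edgeR called 0 of 21207 genes (0%; 1843 had an unadjusted p under 0.05, and DESeq2 called 14). Htr1f was 2.61, 9.45 and 31.8 CPM with Kir2.1 and 2.23, 12.2 and 51.5 with the mutant, a log2 fold change of -0.65 ± 0.54 (95% interval -1.70 to 0.40). Htr3a gave 0.31 ± 0.27 (-0.21 to 0.84), Calb2 0.39 ± 0.23 (-0.06 to 0.84) and Slc18a3 0.80 ± 0.41 (-0.01 to 1.60). Among all nuclei 6 of the 10 genes were tested and edgeR called 0 of 21362 genes (0%; 1289 unadjusted, 2 by DESeq2). Htr1f there was 0.16 ± 0.19 (-0.22 to 0.54).

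Whether the vector difference depended on transduction was tested directly. No gene of the 10 passed the interaction, where 0.401% of genes did, 0.123% with a positive and 0.278% with a negative value. Crispld2 came nearest (-0.93 ± 0.45, unadjusted p = 0.0463, edgeR adjusted p = 0.629), followed by Htr3a (0.62 ± 0.38, edgeR adjusted p = 0.794) and Htr1f (-1.23 ± 0.76, edgeR adjusted p = 0.803). The difference of the vector effect between VIP nuclei and neurons also passed for none (0.316% of 18359 genes). It can be read only for the genes that passed the filter in neurons. It was -0.80 ± 0.53 for Htr1f (edgeR adjusted p = 0.927), so the responses of Htr1f in these populations were not shown to differ. It was 0.02 ± 0.28 for Cnr1 and -0.43 ± 0.29 for Synpr.

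Transduced and non-transduced VIP nuclei of the same treatment were compared next, using the same transduced libraries as above. With Kir2.1 none of the 10 genes passed (0.769% of genes did, 0.17% higher and 0.599% lower), and with the mutant none did (0.00943%). Htr3a was higher in Kir2.1 transduced than in non-transduced VIP nuclei by 0.65 ± 0.26 (unadjusted p = 0.0149, edgeR adjusted p = 0.288), with 9 of 10 libraries above the non-transduced median. The call changed with vector and number as a block (edgeR adjusted p = 0.0147), though the labels tie no number to a mouse. Crispld2 was 12.1, 22.2 and 87.5 CPM in mutant non-transduced and 31.8, 63.3 and 107 in mutant transduced VIP nuclei. The difference was 0.92 ± 0.33 (unadjusted p = 0.00769, edgeR adjusted p = 0.523), while with Kir2.1 it was -0.01 ± 0.31. Htr1f differed by -0.40 ± 0.52 with Kir2.1 and by 0.83 ± 0.55 with the mutant.

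VIP nuclei without any virus gave a further reference, with 3 libraries. None of the 10 genes passed (0.00943% of genes did), but 5 of 10 had an unadjusted p under 0.05, against 9.88% of all genes, and all 5 were lower in mice with a virus. The median of the 10 was -0.58 and that of all genes 0.12. Slc18a3 was 53.5, 68.7 and 118 CPM without virus. It was 14.5, 27.6 and 59.6 CPM (lowest, median, highest) with Kir2.1 and 4.77, 21.8 and 46.7 with the mutant. All 9 mutant libraries and 9 of 10 Kir2.1 libraries lay below the lowest library without virus. The log2 fold change was -1.74 ± 0.48 (unadjusted p = 0.000608, edgeR adjusted p = 0.3). Npy2r (-0.89 ± 0.37), Chat (-0.81 ± 0.27), Htr3a (-0.77 ± 0.34) and Calb2 (-0.69 ± 0.29) followed, with edgeR adjusted p from 0.449 to 0.504. For the choline transporter Slc5a7 the value was 0.11 ± 0.40 (95% interval -0.68 to 0.90). All libraries without virus are labelled male. In all nuclei 0.211% of genes were called (0.197% higher, 0.014% lower) and none of the 6 tested of the 10.

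The families around the 10 genes were read from lists that were chosen with earlier results known. Each list counted in this comparison holds at least 1 of the 10 genes, which are part of its counts. Between VIP nuclei and all nuclei, where 12.8% of all genes were higher and 19.7% lower, 6 of 13 serotonin receptors were higher and 4 lower. Htr2c (2.92 ± 0.33) and Htr4 (1.72 ± 0.20) were among the higher ones. Of 9 genes of cholinergic synthesis and transport, 6 were higher, among them the degrading enzyme Ache (2.58 ± 0.22), and Prima1, its membrane anchor, was lower (-6.52). All 3 neuropeptide Y receptors tested were higher: Npy2r, Npy1r (2.24 ± 0.18) and Npy5r (2.45 ± 0.24). Of 10 endocannabinoid genes 3 were higher and 5 lower, with Cnr1 up and the degrading enzyme Faah down (-1.30). Of 10 EF-hand calcium buffers 4 were higher and 3 lower: beside Calb2, Necab2 was higher (1.79) and Calb1 lower (-2.28). Of 7 synaptophysin and synaptogyrin genes 4 were higher and 2 lower, and of 7 CAP superfamily genes Crispld2 alone was higher. Of 28 genes that appear in names of cortical VIP types, 15 were higher and 3 lower.

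Between Kir2.1 and mutant transduced VIP nuclei, where 1.39% of all genes were called, the families were counted the same way. Serotonin receptors gave 0 of 11, with Htr2a at -3.18 ± 1.05 (edgeR adjusted p = 0.124) and Htr7 at -0.73 ± 0.30 (0.275). Cholinergic genes gave 0 of 8, endocannabinoid genes 0 of 9 and neuropeptide Y receptors 0 of 3. Of 10 acetylcholine receptors, Chrna7, the subunit of a fast calcium-permeable receptor, fell (-0.89 ± 0.19; edgeR adjusted p = 0.005). Of 10 EF-hand genes Ncald fell (-0.53 ± 0.12; edgeR adjusted p = 0.0096). Among 27 genes in names of VIP types, Cnmd (-3.95 ± 0.51) and Itga4 (-1.94 ± 0.50) fell.

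In transduced neurons 5.63% of all genes were called and 3.45% were lower. Of 10 serotonin receptors 3 fell: Htr1f, Htr7 (-1.80 ± 0.34; edgeR adjusted p = 0.00101) and Htr2a (-1.03 ± 0.29; edgeR adjusted p = 0.0324). The list had a median of -0.61 against 0.04 for all genes. Of 8 acetylcholine receptors Chrm3 (-0.60), Chrnb3 (-3.49) and Chrna4 fell, and of 3 cholinergic genes tested Ache (-1.67 ± 0.36) and Slc44a1 (-0.79 ± 0.18) fell. None of 9 endocannabinoid genes passed.

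The 10 genes were also compared for how they varied together between libraries of a group. Log2 CPM minus the group mean was correlated for 45 pairs in 19 transduced and 22 non-transduced VIP libraries, 90 relations in all. By Pearson's r 14 relations, from 11 pairs, passed a permutation test after adjustment, all positive, and 8 passed by rho. The 2 farthest libraries, where left out, were those farthest from the median of the first-named gene. A library far only in the second gene stayed in. Htr3a and Npy2r gave r = 0.908 and rho = 0.805 in transduced libraries (permutation p = 7e-05 and 6e-05, adjusted 0.0063 and 0.0054), and r = 0.771 without the 2 farthest libraries. In non-transduced libraries they gave r = 0.697 and rho = 0.649 (permutation p = 0.00029 and 0.00281, adjusted 0.0063 and 0.0316), and 0.608 without the 2 farthest. Chat and Slc18a3, the nested pair, gave r = 0.745 and rho = 0.712 in non-transduced libraries (permutation p = 0.00035 and 0.00069, adjusted 0.0063 and 0.0207; 0.705 without the 2 farthest). In transduced libraries they gave r = 0.698 and rho = 0.574 (permutation p = 0.00149 and 0.0144, adjusted 0.0168 and 0.0996; 0.61 without the 2 farthest). The part of unspliced Chat RNA in the Slc18a3 counts was not tested. Slc18a3 and Npy2r also passed in both strata, at r = 0.65 and rho = 0.693 in non-transduced libraries (permutation p = 0.00043 and 0.00147, adjusted 0.00645 and 0.022; 0.588 without the 2 farthest). In transduced libraries they gave r = 0.642 and rho = 0.558 (permutation p = 0.00222 and 0.0126, adjusted 0.02 and 0.0942), but 0.355 without the 2 farthest, so this relation rests on those libraries. By single group r ran from 0.5 to 0.969 for Htr3a with Npy2r and from 0.602 to 0.799 for Chat with Slc18a3. Cnr1 with Npy2r (r = 0.75, non-transduced) rested on few libraries: r was 0.226 without the 2 farthest and rho was 0.346, with permutation p of 0.00204 and 0.114 (adjusted 0.02 and 0.251).

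The libraries also shared a wider axis. The first principal component of the other 21197 genes held 7.78% of the variance, and correlated with Htr3a (r = -0.80), Npy2r (-0.76), Calb2 (-0.72) and Slc18a3 (-0.70), less with Chat (-0.43), and with Htr1f at 0.51. With that component removed, an alternative chosen after seeing the data, 8 relations passed, 6 of the 14 and 2 others. Htr3a with Npy2r passed in transduced libraries (r = 0.669, adjusted permutation p = 0.0348) and no longer in non-transduced ones (r = 0.411, adjusted permutation p = 0.275). Chat with Slc18a3 passed in non-transduced libraries (r = 0.704, adjusted permutation p = 0.0229) and no longer in transduced ones (r = 0.596, adjusted permutation p = 0.0548). Slc18a3 with Npy2r no longer passed in non-transduced libraries (r = 0.334, adjusted permutation p = 0.272) or in transduced ones (r = 0.165, adjusted permutation p = 0.701). What the component stands for was not tested.

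**Figure D5:**
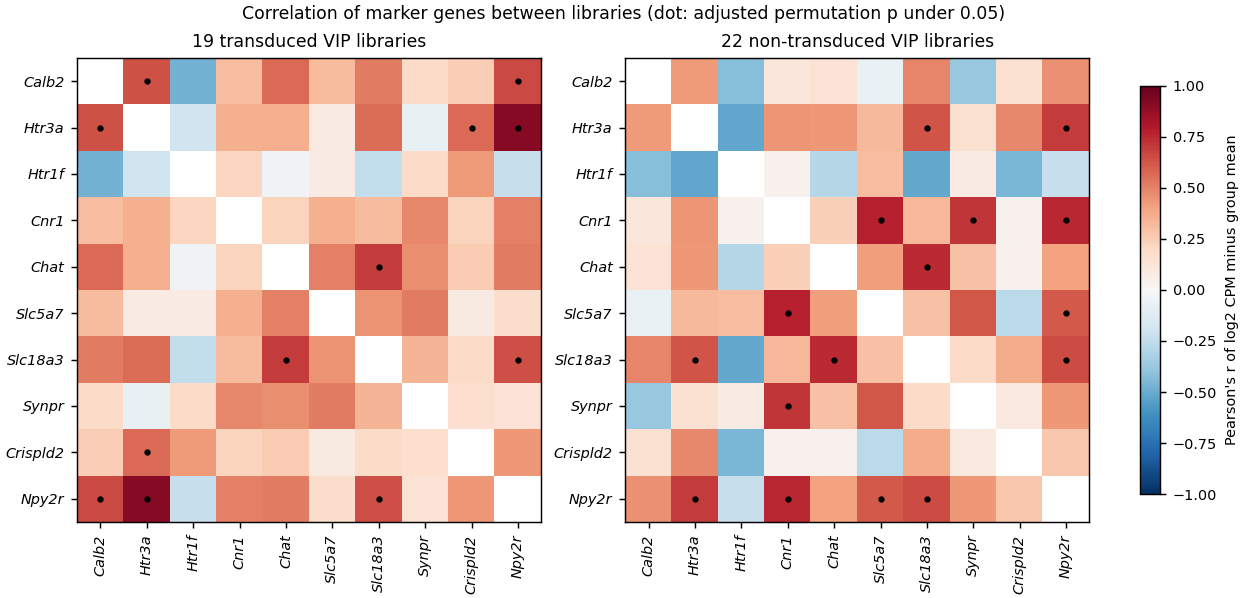
Pearson's r of log2 CPM minus the group mean for every pair of the 10 genes in 19 transduced (left) and 22 non-transduced (right) VIP libraries; red is positive, blue is negative and a dot marks an adjusted permutation p under 0.05. Htr3a with Npy2r, Chat with Slc18a3 and Slc18a3 with Npy2r carry a dot in both panels, and Htr1f carries none.

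Genes whose level ran most like each of the 10 over the 41 VIP libraries were searched among 13094 genes by Spearman's rho. For Htr3a they were its antisense neighbour Gm32335 (0.972) and Syt11 (0.825), and for Npy2r Pgrmc1 (0.853) and Fxyd6 (0.84). Slc18a3 ran with Prnp (0.826) and its readthrough transcript Prn (0.823). Chat ran with Slc18a3 (0.713) and Tspan7 (0.655), and Slc5a7 with 4930453N24Rik (0.712) and Pdcd10 (0.643). Synpr ran with the clustered protocadherins Pcdha4 (0.78) and Pcdha3 (0.779), and Crispld2 with Pcdhgb8 (0.612) and Pcdhga11 (0.605), genes of clusters whose members share exons. Calb2 ran with Gm28038 (0.767) and Ppp1ca (0.753), Cnr1 with Erp44 (0.721) and Neto1 (0.677), and Htr1f with Ftx (0.702) and Trps1 (0.658).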

How the data were processed

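Nuclear RNA was reverse transcribed with an oligo-dT primer, amplified for 17 cycles and made into Nextera XT libraries, per the labels' protocols. The authors deposited 1 table of raw counts per Ensembl gene for 79 libraries. Tools listed in the submitters' processing notes were HOMER 4.9.1, STAR 2.5.3a and cutadapt 1.18, with the build mm10. The counting settings and annotation are not given in the sources used here. GENCODE vM21 named 55154 of 55335 identifiers. The other 181 held 0.0264% of counts. No 2 libraries were identical.

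Tests used edgeR 4.0.16 (R 4.3.3, limma 3.58.1): TMM scaling, filterByExpr (minimum count 10, minimum total 15), the quasi-likelihood F test and Benjamini-Hochberg adjustment over all genes tested, called at 0.05. VIP nuclei (41 libraries), all nuclei (22) and transduced neurons (16) were fitted separately, and comparisons between populations in joint fits (44 and 35). CPM levels used 1 TMM scaling over all 79 libraries, so they can be set side by side between populations. Log2 CPM of the 10 genes for correlations, and the excitatory sum without Camk2a, used the scaling of the VIP fit. Standard errors are in log2 units. Correlations used 100000 permutations within groups (smallest p 1e-05). Scripts were tested on simulated data. Alternatives were DESeq2 1.42.0, no filter, a minimum count of 30, sex as a term, a replicate block, and libraries left out. The replicate block was the number shared across vectors for Kir2.1 against the mutant and for a virus against none. For other comparisons it was vector and number together.

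The 10 genes and all lists were chosen with earlier results of these data known. Of each list the text gives counts and up to 4 genes of smallest adjusted p. For each of the 10 genes it gives the 2 genes of mean CPM 5 or more with the highest rho. Same-numbered libraries were not treated as pairs, since the labels tie no number to a mouse and in no comparison did every pair's correlation exceed 0.1.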

Additional observations from a re-analysis of the deposited data

Results flagged for a closer look

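Levels of each gene were examined for a library far from the rest of its group, in groups of 4 to 10 libraries. Of 72 combinations of a gene and a group, 18 held one by Dixon's 95% critical value. The same libraries recur across genes, so the combinations are not independent. That value gives about 1 in 20 by chance only for normally distributed values. CPM on a linear scale with many values at 0 is not so distributed, so the count cannot be read against it. Of the 40 combinations in VIP nuclei 3 did, and of the 32 others 15 did, where most libraries were at or near 0. In VIP nuclei Npy2r was lowest in mutant transduced replicate 1 (8.84 CPM, next 81.3). Crispld2 was highest in mutant non-transduced replicate 8 (87.5 CPM, next 44.6) and Slc18a3 in mutant non-transduced replicate 7 (46.7 CPM, next 24.7).

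Among all nuclei with Kir2.1, the libraries that stood apart were replicate 3 for Calb2 (25.8 CPM, next 4.14), replicate 6 for Chat (0.495, next 0), replicate 8 for Htr3a (14 CPM, next 1.66) and replicate 9 for Slc5a7 (1.07, next 0.125). Among all nuclei with the mutant, replicate 1 stood apart for Cnr1 (202 CPM, next 92.3), Crispld2 (0.353, next 0.132) and Slc18a3 (0.705, next 0). Replicate 6 there stood apart for Chat (2.59 CPM, next 1.23) and Htr3a (11.7 CPM, next 3.35).

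Among transduced neurons with the mutant, replicate 4 was high for Calb2 (5.12 CPM, next 1.62), replicate 2 for Crispld2 (1.98, next 0.549) and replicate 6 for Htr3a (31.9, next 0.847). With Kir2.1, replicate 6 was high for Crispld2 (2.14 CPM, next 0.631), replicate 5 for Htr3a (11.9 CPM, next 2.39) and replicate 9 for Npy2r (7.36 CPM, next 2.63).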

How the results depend on the processing

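Fold changes of all tested genes of the 10 were followed in the comparisons between populations and for Kir2.1 against the mutant in transduced VIP nuclei and neurons. In the other comparisons only those with a smaller unadjusted p were followed, so changes near 0 there are not counted. Of the fold changes followed, 1184 kept their direction and their side of the threshold, 12 newly passed it and 5 changed sign. For Kir2.1 against the mutant in transduced VIP nuclei, the count of genes called among the 10, 0 in the main test, was 1 with DESeq2, 2 without the filter on low counts, 1 without the libraries that stood apart, and 0 to 2 with single libraries left out. With the number shared across vectors as a block it was 1 (Htr3a, adjusted p = 0.0432). Without the filter the 2 were Htr1f (0.0494) and Htr3a (0.0475). With vector and number together as a block the count was 1 for Kir2.1 transduced against non-transduced VIP nuclei (Htr3a, 0.0147), and 0 in the main test. With the number shared across vectors, which joins libraries of different treatments, it was 1 for a virus against none in VIP nuclei (Slc18a3, 0.022), and 0 in the main test. The latter was also 1 without the filter (0.0397). The numbers were not taken as pairs, since not every pair's correlation was over 0.1. Between transduced and non-transduced VIP nuclei, 8 of 9 mutant and 6 of 10 Kir2.1 libraries correlated best with their own number, a hint from the data and not the design. The sex label was the same in 9 of 9 of these mutant and 9 of 10 of these Kir2.1 pairs. Across the vectors, in transduced VIP nuclei, 1 of 9 correlated best with its own number and 5 of 9 pairs had the same sex label. The blocks changed no other call among the 10.

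The sign changes counted were all far from the threshold. For Kir2.1 against the mutant in transduced VIP nuclei, Cnr1 was -0.0056 without the libraries that stood apart. With single libraries left out it ran from -0.0054 (without Kir2.1 replicate 1) to 0.17, and Npy2r from -0.042 (without mutant replicate 1) to 0.19. In neurons Cnr1 ran from -0.0051 (without Kir2.1 replicate 5) to 0.22. In all nuclei with a virus against none, Htr3a ran from -3.48 to 6.53. The last value is a fit without the no-virus replicate 2, which holds all Htr3a counts of its group, and is no bound on a fold. The count of correlated relations, 14 in the main test, was 8 with the first component removed (6 of the 14 and 2 others), 16 with a prior count of 0.5 and 15 without the libraries that stood apart.

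Counts over all genes moved by more than 1.5 times in these cases. Kir2.1 against the mutant in non-transduced VIP nuclei gave 14 with DESeq2 (0 in the main test), in all nuclei 2 with DESeq2 (0), and in neurons 1388 with DESeq2 and 526 with the replicate block (898). Transduced against non-transduced gave 256 with the replicate block for Kir2.1 (163) and 4 for the mutant (2). A virus against none in VIP nuclei (2) gave 34 with the replicate block, 6 with sex as a term, 72 with DESeq2, 214 without the filter and 0 to 4 with single libraries left out. In all nuclei (45) it gave 382 with DESeq2, 289 without the filter and 23 to 60 with single libraries left out. The interaction with transduction (85) gave 719 without the filter, 46 at a minimum count of 30 and 48 to 112 with single libraries left out. The interaction with population (58) gave 103 with DESeq2 and 274 without the filter. No library stood apart among all nuclei or neurons, so that alternative was not run there. Slc5a7, Slc18a3, Chat and Crispld2 had too few counts outside VIP nuclei for a vector comparison.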
